A study of Mus musculus with 7 samples.

Results

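Single-nucleus RNA of the mouse hippocampus was searched for GABAergic nuclei that carry transcripts of the medial ganglionic eminence (MGE) programme but little or no somatostatin. A nucleus was selected if it held at least 2000 and under 50000 transcripts and more than 400 genes, at least 3 transcripts of Gad1 and Gad2 together, at most 1 of Slc17a7 and at most 1 of Sst. Its Nxph1, Lhx6 and Sox6 transcripts together also had to reach 3 and to exceed those of Adarb2. Of 32312 nuclei of that depth, 3091 passed the GABAergic gates and 1712 were selected, out of 1516119 barcodes listed in the series. The choice rests on measured values, so the levels of the rule's own genes describe the selection and are no result.

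The nuclei came from 24 wells of the first barcoding round, each loaded with nuclei from the dissected hippocampal tissue of 1 mouse, and the well is the replicate. Arctic48 (Arc) mice carry a hemizygous human APP transgene with the Indiana, Swedish and Arctic mutations on a C57BL6/J background. The wild-type (WT) mice were offspring without the transgene from crosses of Arc with C57BL6/J mice. Mice of each genotype drank plain water (veh) or water with PMX205, a cyclic peptide antagonist of the complement receptor C5aR1, at 20 µg/ml, were housed singly, and were perfused at 10 months. The labels give 12 weeks of treatment, while the study's text gives a somewhat shorter span for mice of this age. The labels also name transcription inhibitors in the perfusion solution, which the study's methods name only for the isolation of microglia. Each of the 4 groups (WT-veh and WT-PMX, Arc-veh and Arc-PMX) held 6 wells, 3 per sex. Wells F1, F2 and F3 are from females, and wells M1, M2 and M3 are from males. The study left out 1 WT sample that its expression marked as Arctic. Its well was not named, so all wells are kept here. Each of the 7 sequenced sublibraries mixes all wells, so each well's counts were added up across sublibraries.

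GABAergic interneurons of the hippocampus arise mainly from 2 embryonic sources, the medial and the caudal ganglionic eminence (CGE). The MGE lineage is specified by the transcription factors Nkx2-1, Lhx6 and Sox6 and gives rise to parvalbumin basket and axo-axonic cells, somatostatin cells and, in the hippocampus, many neurogliaform and ivy cells, whereas CGE cells express Adarb2, Prox1 and often Vip or Cck. Parvalbumin cells fire fast trains through Kv3 potassium channels (Kcnc1, Kcnc2) and release GABA with synaptotagmin 2 (Syt2), and their cell bodies are often wrapped by a perineuronal net.

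The genes of the rule and the label lie in separate regions of the GRCm38 (mm10) genome. Lhx6 spans chromosome 2 from 36081953 to 36105408 and Sox6 spans chromosome 7 from 115470872 to 116038796, both on the minus strand. Nxph1, which codes for a secreted ligand of alpha-neurexins, spans chromosome 6 from 8948431 to 9249032 on the plus strand. Pvalb, which codes for the calcium buffer parvalbumin and was not part of the rule, spans chromosome 15 from 78191114 to 78206400 on the minus strand. Counts are given per gene, and whether a read fell in an exon or an intron was not examined here.

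Selected nuclei numbered 26 to 138 per well (median 64) and carried 152698 to 2245223 transcripts per well, with a median of 10998.5 transcripts and 3417.5 genes per nucleus. Every one of the 24 wells held selected nuclei, and the sublibraries held 224 to 284 of them. The round 1 to 3 barcode of 321 selected nuclei (18.8%) also occurred in another sublibrary among nuclei of more than 300 transcripts, and 7 barcodes were carried by selected nuclei of more than 1 sublibrary. Xist ranged from 334 to 763 counts per 1000000 transcripts of the selected nuclei (CPM) in the wells labelled female and from 0 to 3.93 CPM in those labelled male, with no well against its label.

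Nxph1 carried the selection. It was detected in 99.2% of the selected nuclei and alone reached 3 transcripts in 1693 of them (98.9%). The lineage factors were sparser, with Lhx6 in 653 nuclei (38.1%), Sox6 in 825 (48.2%), both in 435 (25.4%) and neither in 669 (39.1%). For Lhx6 the share in glutamatergic nuclei, which should lack it, was 0.0423% at a median depth of 20906 transcripts, and in CGE-like nuclei it was 6.29% at 10091. After each nucleus was thinned to 2000 transcripts, Lhx6 was found in 9.75% of selected, 2.02% of CGE-like and 0% of glutamatergic nuclei. CGE-like nuclei are the 890 nuclei that passed the same GABAergic gates and held at least 3 Adarb2 transcripts and no fewer than those of Nxph1, Lhx6 and Sox6 together.

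Pvalb was found in 204 selected nuclei (11.9%) and reached 3 transcripts in 35. In CGE-like nuclei the share with any Pvalb transcript was 0.562% and in glutamatergic nuclei 0.423%, so the share in the selected nuclei lay above both backgrounds, and it also did at 2000 transcripts per nucleus (2.63% against 0.112% and 0.0845%). Most selected nuclei had no Pvalb transcript at this depth, which does not show that the gene was silent in them.

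Single nuclei near the edges of the rule were few for most gates. Among the selected nuclei 269 had exactly 3 Gad1 and Gad2 transcripts, 36 had exactly 3 of Nxph1, Lhx6 and Sox6, and 138 had 1 Sst transcript. Just outside, 310 nuclei failed only because Gad1 and Gad2 came to 2, 37 because Nxph1, Lhx6 and Sox6 came to 2, 34 because they held 2 Sst transcripts and 9 because they held 2 of Slc17a7. The gate on Gad1 and Gad2 was thus the one with the most nuclei close to it.

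The 204 nuclei with Pvalb carried more of the fast-spiking genes than the 1508 without it, as a description of nuclei pooled over wells. Syt2 stood at 213 CPM with Pvalb and 26.2 CPM without, Kcnc1 at 615 and 231 CPM, and Kcnc2 at 2867 and 1503 CPM. Ppargc1a, a regulator of mitochondrial genes, stood at 264 and 115 CPM, and Cntnap4, a presynaptic adhesion protein of interneurons, at 1581 and 657 CPM. In the other direction, Reln was at 63.7 CPM with Pvalb and 537 CPM without, Elfn1, a synaptic protein of somatostatin cells, at 44.1 and 145 CPM, and the transcription factor Meis2 at 15.7 and 310 CPM. Median depth was 16556.5 transcripts in nuclei with Pvalb and 10549.5 in those without, and its part in who shows a Pvalb transcript was not tested.

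Clustering of the selected nuclei on genes other than those of the rule gave 15 groups of 32 to 251 nuclei. Clusters were named "-like" only from marker lists, where at least 3 markers were detected in 10% of the cluster and stood at least 2-fold above the other selected nuclei. As the same genes made the clusters, their levels describe them and are not tested.

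Clusters 3 (223 nuclei) and 5 (154 nuclei) were basket or fast-spiking-like. In cluster 3, 10 of the 12 markers of the list were at least 2-fold higher than in the other selected nuclei, with Pvalb at 45.1, Syt2 at 207 and Kcnc2 at 4136 CPM, and Sox6 was found in 98.7% of its nuclei. In cluster 5 it was 4 markers, Pvalb at 51.0, Kcnc1 at 610.5, Syt2 at 151 and Ppargc1a at 258 CPM, and the leading genes were Qrfpr, Stk32a, Tll1 and Gna14. Reln stood at 9.17 CPM in cluster 3 and at 348 CPM in cluster 5. Acan, the core proteoglycan of perineuronal nets, was at 37.0 and 29.2 CPM in them and at most 14.1 CPM in any other cluster.

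Cluster 12 (42 nuclei) was axo-axonic-like. It carried 4 of the 5 axo-axonic markers, with the netrin receptor gene Unc5b at 281 CPM, C1ql1 at 19.7 CPM and Pthlh at 14.3 CPM, and it also had the highest share of nuclei with Pvalb of all 15 clusters (47.6%) and 4 of the 12 basket markers. All 42 nuclei held Lhx6 or Sox6. Cluster 11 (53 nuclei), led by Corin, carried 3 of the 12 basket markers, Kcnc2 at 7218, Satb1 at 684 and Erbb4 at 16542 CPM, and passed the rule for basket or fast-spiking-like, but Pvalb was seen in only 11.3% of its nuclei.

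Clusters 7 (103 nuclei) and 9 (86 nuclei) were bistratified or oriens-lacunosum-like, the types that in the hippocampus usually make somatostatin. Elfn1 stood at 419 and 320 CPM and Npy at 31.0 and 38.6 CPM in them. Of their nuclei 18.4% and 25.6% held the 1 Sst transcript that the rule allows, as did 25.5% of cluster 4. Cluster 4 (184 nuclei), with Elfn1 at 384 and Reln at 1694 CPM, carried 3 markers of this list but also 3 of the CGE list, among them Npas1 as a leading gene, and is left without a name.

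Cluster 2 (224 nuclei) was neurogliaform or ivy-like. It carried 6 of the 9 markers, with Lamp5 at 81.1, Hapln1, a link protein of the extracellular matrix, at 138, and Nos1, the neuronal nitric oxide synthase, at 333 CPM. Lhx6 was found in 54.9% of its nuclei and Sox6 in 16.5%. The CGE marker Adarb2 was found in 52.7% of them at 669 CPM, the highest level after cluster 15. Of the CGE list, Prox1 was also at least 2-fold higher in cluster 2. No nucleus of cluster 2 held Pvalb or Sst. Cluster 15 (32 nuclei) shared Lamp5 (82.8 CPM) but held neither Lhx6 nor Sox6, had Adarb2 at 3775 CPM and Reln at 4323 CPM, and was led by Kit and Ndnf. It had 7 of the 9 neurogliaform markers but also 3 of the 9 markers of the CGE list (Prox1, Nr2f2 and Cnr1). Its leading genes include Adarb2, and it stays unnamed.

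A block of 490 selected nuclei (28.6%) went against the MGE label. Clusters 1, 6, 8 and 14 reached the rule through Nxph1, with 3 or more transcripts in 99.8% of the nuclei, but Lhx6 or Sox6 was found in only 6.53% of them, against 82.7% in the other 11 clusters. These 11 include cluster 15, which is not counted in the block although it held neither Lhx6 nor Sox6. Meis2 was found in 64.7% of these nuclei and in 5.65% of the rest. Meis2 alone did not separate the block, as it was found in 37.9% of cluster 6. Outside the block it was found in 41.0% of cluster 10 (260 CPM) and 36.8% of cluster 13 (197 CPM). Its level was 845 CPM in cluster 1, 322 CPM in cluster 6, 1078 CPM in cluster 8 and 1156 CPM in cluster 14, against 131 CPM in glutamatergic nuclei and 166 CPM in CGE-like nuclei.

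Cluster 1 (251 nuclei) was led by Foxp2 (299.9 CPM against 10.4 CPM in the other selected nuclei) and Zfhx3 (1292 against 126 CPM), and carried 5 of the 11 markers of a list for striatal, septal or thalamic neurons, Drd2, Rgs9, Meis2, Foxp2 and Ecel1. Cluster 6 (103 nuclei) was led by Grid2ip, Dach2 and Mob3b. Cluster 8 (99 nuclei) was led by Sulf1, Otx2os1 and Cpa6 and had Htr2c, a serotonin receptor gene, at 1263 CPM and carried 3 of the 11 markers of the same list (Meis2, Six3 and Ecel1). Cluster 14 (37 nuclei) was led by Col15a1 and carried Glp1r, the GLP-1 receptor gene, at 153 CPM. It also had 3 of the 5 axo-axonic markers, among them Unc5b and Cpne5, but Lhx6 or Sox6 in 5.41% of its nuclei and Meis2 in all of them. Clusters 1 and 8 thus reached the rule for a striatal, septal or thalamic-like name, and cluster 14 that for axo-axonic-like. These names were set aside, and the 4 clusters are called here by their leading genes and given no cell type.

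Clusters 10 and 13 also stay unnamed. Cluster 10 (83 nuclei) carried all 6 oligodendrocyte and all 6 astrocyte markers and 5 of 6 microglial markers at least 2-fold higher than the other selected nuclei, and 30 of its nuclei had a doublet score above 0.25 (median score 0.177). Cluster 13 (38 nuclei) carried 4 of 7 glutamatergic and 3 of 9 neurogliaform markers, with a median doublet score of 0.105. Among all selected nuclei, 42 (2.45%) had a doublet score above 0.25.

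**Figure D1:**
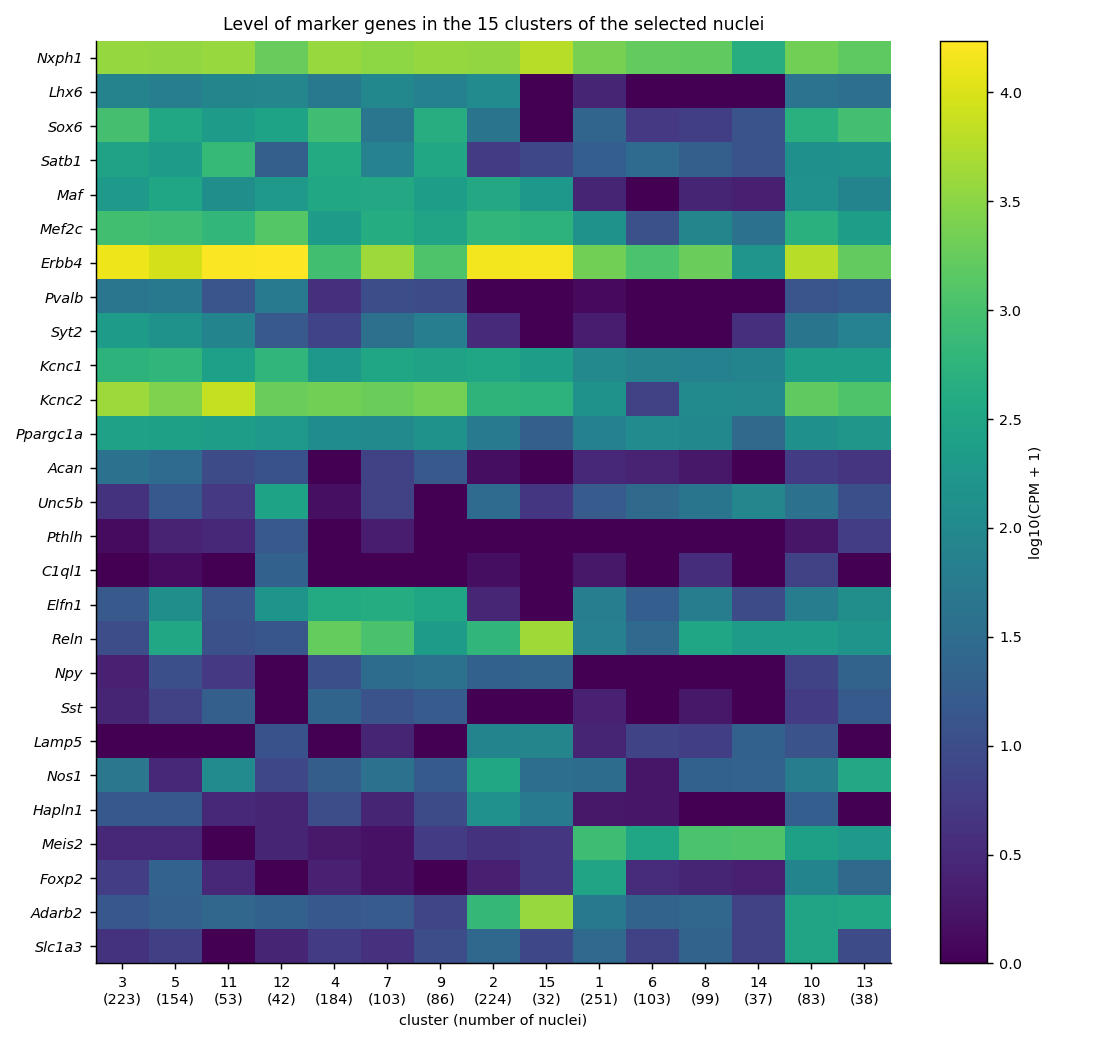
Level of 27 genes (rows) in the 15 clusters of selected nuclei (columns, with the number of nuclei), as log10 of CPM plus 1, where brighter is higher. Lhx6 and Sox6 are near the dark end in clusters 15, 1, 6, 8 and 14, where Nxph1 stays bright. Meis2 is bright in clusters 1, 6, 8 and 14 and also in clusters 10 and 13.

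The share of selected nuclei that lay in clusters 1, 6, 8 and 14 differed widely between wells of the same group. In WT-veh it was 7.41% in F1, 42.5% in F2, 0% in F3, 1.33% in M1, 57.1% in M2 and 0% in M3. In WT-PMX the lowest, median and highest were 0%, 29.2% and 43.0%, in Arc-veh 0%, 17.6% and 36.6%, and in Arc-PMX 4.23%, 40.2% and 48.7%. The 4 groups overlapped, and the spread inside WT-veh alone covered all other wells. Since the clusters were found in these nuclei, no test was run on these shares. The percent of selected nuclei with Lhx6 or Sox6 ran from 37.6% to 80.0% in WT-veh (median 71.1%), up to 77.1% in WT-PMX (57.2%), from 55.4% to 88.2% in Arc-veh (74.7%) and from 47.1% to 84.5% in Arc-PMX (56.4%). These also overlapped.

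Clusters 2, 3, 4 and 5 had nuclei in all 24 wells, while clusters 1, 6, 8 and 11 each had nuclei in 18, cluster 13 in 17, cluster 15 in 16 and cluster 14 in 14. In clusters 2, 3, 4 and 5, 7.14% to 10.3% of a cluster came from its most frequent well. Cluster 3 made up a median of 17.4% of the selected nuclei in WT-veh, 8.59% in WT-PMX, 19.5% in Arc-veh and 13.6% in Arc-PMX. Cluster 5 made up 11.7%, 13.03%, 9.57% and 5.73%, and cluster 2 made up 15.4%, 17.7%, 13.7% and 8.56%. The ranges of the groups overlapped in all 3 clusters.

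**Figure D2:**
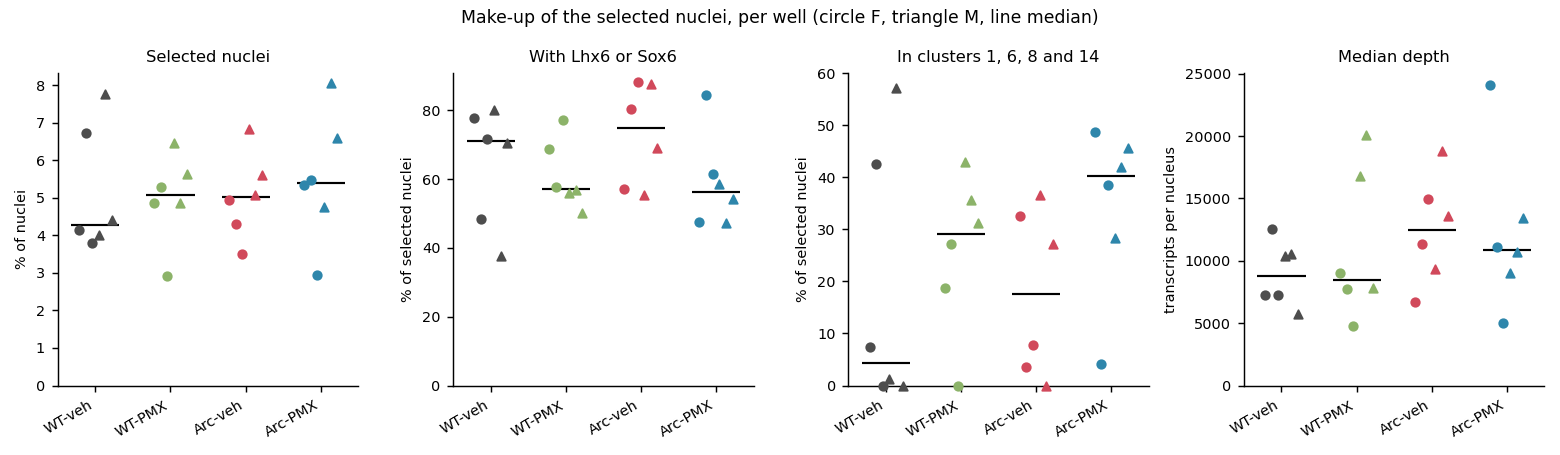
Panels show, for each of the 6 wells per group (circles female, triangles male, line the median), the selected nuclei as a percent of nuclei, the percent of selected nuclei with Lhx6 or Sox6, the percent in clusters 1, 6, 8 and 14, and the median transcripts per selected nucleus. The groups overlap in every panel, and the third panel spans 0% to 57.1% within WT-veh.

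The first comparison asked whether the amyloid genotype or the C5aR1 antagonist went with a different share of these nuclei. Selected nuclei were 5.15% ± 1.67 (SD, n = 6 wells) of nuclei in WT-veh, 5.00% ± 1.19 in WT-PMX, 5.05% ± 1.14 in Arc-veh and 5.53% ± 1.72 in Arc-PMX. The lowest and highest wells were 3.80% and 7.76% in WT-veh, 2.91% and 6.46% in WT-PMX, 3.5003% and 6.83% in Arc-veh, and 2.94% and 8.06% in Arc-PMX. The groups overlapped almost completely. Since the rule asks for fixed transcript counts, a well's share can depend on its depth. The lowest wells of WT-PMX and Arc-PMX, F3 in both, had medians of 4733 and 4986 transcripts per selected nucleus. The deepest well, Arc-PMX F1, had a median of 24072 and a share of 5.35%. The part of depth in the shares was not tested.

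The difference in share was -0.101 percentage points for Arc-veh minus WT-veh (two-sided exact permutation test, p = 0.909, adjusted over 3 contrasts 0.909), 0.484 for Arc-PMX minus Arc-veh (p = 0.580, adjusted 0.909) and -0.146 for WT-PMX minus WT-veh (p = 0.857, adjusted 0.909). With 6 wells against 6 the smallest p this test can give is 0.00216. The first of these differences turned to 0.504 when only nuclei with Lhx6 or Sox6 were counted (adjusted p = 0.234), and the second to -0.394 (adjusted p = 0.620) and, as a share of GABAergic nuclei, to -5.47 (adjusted p = 0.463), all by the same permutation test. The stricter rule turned the first to 0.0935 and the third to 0.0333. Single wells turned each of them. The first became 0.421 without WT-veh M2, 0.216 without WT-veh F2, 0.208 without Arc-veh F3 and 0.0477 without Arc-veh F2. The second became -0.0223 without Arc-PMX M2, and 1.001 without Arc-PMX F3. The third became 0.376 without WT-veh M2, 0.170 without WT-veh F2 and 0.272 without WT-PMX F3.

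The next comparison asked which genes of the selected nuclei differed with genotype or treatment. No gene passed edgeR's quasi-likelihood test at an adjusted p of 0.05 among the 8333 tested that were not in the rule, in any of the 3 contrasts or in the difference between the PMX205 effects in Arc and WT mice (0.0% called in each). DESeq2 called 0 as well. These counts depend on the filter on low counts: without it, 42 genes were called for Arc-veh minus WT-veh (15 higher and 27 lower), 177 for Arc-PMX minus Arc-veh (150 higher and 27 lower), 5 for WT-PMX minus WT-veh and 63 for the difference between the PMX205 effects, of 25490 tested. Of these, 33, 157, 4 and 51 had been among the genes tested with the filter. Of the genes named below, AY036118 in both Arc contrasts, Alkal2 for Arc-veh minus WT-veh, Phldb2 and Slc12a8 for Arc-PMX minus Arc-veh, and Ss18l2, Sh3glb2 and Gm16168 for the difference between the effects were called there. At an unadjusted p under 0.05 there were 338 genes (4.06%) for Arc-veh minus WT-veh, 164 higher (1.97%) and 174 lower (2.09%). For Arc-PMX minus Arc-veh there were 517 (6.2%), with 255 higher (3.06%) and 262 lower (3.14%). For WT-PMX minus WT-veh there were 212 (2.54%), with 108 higher (1.3%) and 104 lower (1.25%), and for the difference between the PMX205 effects 328 (3.94%), with 145 above 0 (1.74%) and 183 below (2.2%). These 3 contrasts share wells. Levels below are CPM of a well's summed counts, and differences are log2 fold changes with their standard error. As a well held as few as 152698 selected transcripts, low levels can rest on few transcripts, and so can whether wells overlap.

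Pvalb did not pass the test in any contrast. Its lowest, median and highest wells were 11.7, 20.3 and 31.2 CPM in WT-veh, 9.83, 18.9 and 63.2 CPM in WT-PMX, 12.1, 19.7 and 24.2 CPM in Arc-veh, and 4.74, 16.8 and 26.2 CPM in Arc-PMX. The groups overlapped, and WT-PMX F3 alone exceeded 31.2 CPM. The log2 fold change was 0.09 ± 0.38 for Arc-veh minus WT-veh, -0.51 ± 0.39 for Arc-PMX minus Arc-veh and 0.09 ± 0.40 for WT-PMX minus WT-veh (edgeR adjusted p = 1.0, 0.882 and 1.0). All selected nuclei together held 355 Pvalb transcripts, and WT-PMX F3 had 35 nuclei with a median of 4733 transcripts. Pvalb was found in 0.398% of cluster 1 and in 0% of clusters 6, 8 and 14. The median share of these clusters was 17.6% in Arc-veh and 40.2% in Arc-PMX, and its part in the difference was not tested. Among nuclei with Lhx6 or Sox6, a subset chosen after seeing the data, the log2 fold changes were -0.12, -0.18 and 0.16 in the same order.

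The rule's lineage genes are given as levels only. For Nxph1 the WT-veh wells lay between 2528 and 3809 CPM with a median of 2938, and the WT-PMX wells between 2237 and 3167 CPM with a median of 2903. The Arc-veh wells lay between 2709 and 3890 CPM (median 3210) and those of Arc-PMX between 1722 and 3631 CPM (median 2866). Lhx6 had medians of 65.3, 50.2, 63.9 and 41.4 CPM and Sox6 of 358, 322, 495 and 321 CPM in the same order of groups. In all 3 genes the ranges overlapped.

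**Figure D3:**
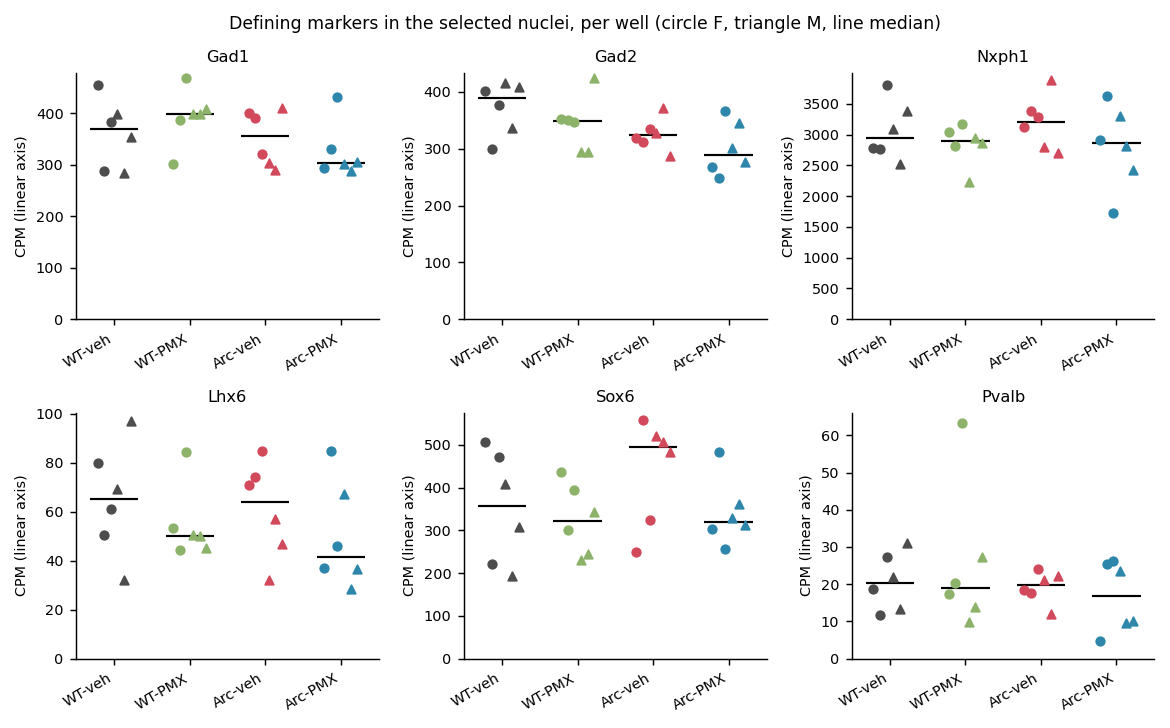
CPM of Gad1, Gad2, Nxph1, Lhx6, Sox6 and Pvalb in the selected nuclei of each well (circles female, triangles male, line the median of 6 wells, linear axes from 0). The groups overlap for all 6 genes, and 1 WT-PMX well stands at 63.2 CPM of Pvalb.

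For Arc-veh minus WT-veh the gene with the smallest p was AY036118, annotated as a lincRNA on chromosome 17 (39847113 to 39848035). Which RNA its reads stem from was not examined here. It ranged from 186 to 281 CPM in WT-veh (median 219) and from 248 to 9101 CPM in Arc-veh (median 351), with Arc-veh M1 at 9101 CPM and the other 5 wells at 248 to 2777 CPM. The ranges overlapped. The log2 fold change was 3.26 ± 0.70 (edgeR adjusted p = 0.642), and without Arc-veh M1 it was 1.55 (adjusted p = 0.934). When all nuclei of a well were summed, the transcript ranged from 163 to 273 CPM in WT-veh and from 322 to 11359 CPM in Arc-veh. High values were thus not particular to the selected nuclei.

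Ss18l2, a homolog of the chromatin factor gene Ss18, ranged from 3.40 to 11.3 CPM in WT-veh and from 9.20 to 26.6 CPM in Arc-veh (medians 8.95 and 23.1). Kat8, a histone acetyltransferase gene, ranged from 9.38 to 13.9 CPM in WT-veh and from 14.5 to 27.5 CPM in Arc-veh (medians 10.4 and 17.5). Kat8 wells did not overlap, as was true of 14 of the 8333 genes (0.168%). Mean levels were low, at 4.06 log2 CPM for Ss18l2 and 4.15 for Kat8. The log2 fold changes were 1.201 ± 0.28 for Ss18l2 and 0.87 ± 0.23 for Kat8 (edgeR adjusted p = 0.874 and 1.0).

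Alkal2 codes for a ligand of the receptor kinases ALK and LTK. Its level was 28.1, 28.7, 37.4, 45.1, 9.44 and 24.3 CPM in WT-veh F1 to M3 and 10.5, 5.04, 10.9, 13.8, 10.1 and 6.17 CPM in Arc-veh F1 to M3. Only WT-veh M2 lay among the Arc-veh wells. The log2 fold change was -1.55 ± 0.38 (edgeR adjusted p = 0.874), and without WT-veh M2 it was -1.88 with an adjusted p of 0.0228. In the PMX205 groups it ranged from 12.98 to 43.2 CPM in WT-PMX and from 2.11 to 12.9 CPM in Arc-PMX. Alkal2 was among the leading genes of cluster 5 (68.1 CPM against 10.9 CPM in the other selected nuclei), whose median share was 11.7% in WT-veh, 13.03% in WT-PMX, 9.57% in Arc-veh and 5.73% in Arc-PMX, and the part of that share in the difference was not tested.

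Tecpr1, an autophagy gene, ranged from 43.4 to 78.2 CPM in WT-veh and from 24.2 to 44.5 CPM in Arc-veh (medians 56.5 and 33.3). It differed by -0.71 ± 0.18 on the log2 scale (edgeR adjusted p = 1.0).

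For Arc-PMX minus Arc-veh the smallest p belonged to Phldb2, a gene for a membrane-associated scaffold protein. It was at 18.3 to 37.5 CPM in the Arc-veh wells and at 0 to 14.5 CPM in the Arc-PMX wells (medians 23.1 and 9.40). These wells did not overlap, as in 16 of 8333 genes (0.192%). The log2 fold change was -1.35 ± 0.32 (edgeR adjusted p = 0.750). Casd1, a sialic acid O-acetyltransferase gene, went the other way, from 10.5 to 33.3 CPM in Arc-veh and from 26.2 to 46.8 CPM in Arc-PMX, with a log2 fold change of 0.73 ± 0.18 (adjusted p = 0.750).

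Slc12a8, a solute carrier gene, ranged from 9.40 to 23.6 CPM in Arc-veh and from 15.7 to 72.0 CPM in Arc-PMX (medians 14.8 and 51.1). Its log2 fold change was 1.75 ± 0.46 (edgeR adjusted p = 0.750). It was among the leading genes of cluster 6 (255 CPM against 17.4 CPM elsewhere), whose median share was 3.02% in Arc-veh and 8.63% in Arc-PMX, and the part of that share in the difference was not tested. The other 2 genes with the smallest p were AY036118 (-2.79 ± 0.70, and -1.10 without Arc-veh M1) and F730043M19Rik (-0.80 ± 0.21), both with an edgeR adjusted p of 0.750.

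For WT-PMX minus WT-veh, Prpf19, which codes for a splicing factor, ranged from 9.38 to 16.0 CPM in WT-veh and from 15.6 to 32.1 CPM in WT-PMX, a log2 difference of 0.98 ± 0.24 (edgeR adjusted p = 1.0). Cc2d1b ranged from 6.93 to 18.1 CPM in WT-veh and from 20.0 to 29.7 CPM in WT-PMX, and its wells did not overlap, as in 5 of 8333 genes (0.06%). Its log2 fold change was 0.72 ± 0.21. Gm37606 (-1.19 ± 0.33), Gpr83 (0.98 ± 0.29) and Sh3glb2 (0.72 ± 0.24) followed, and all 4 had an edgeR adjusted p of 1.0.

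The difference between the PMX205 effects in Arc and WT mice had its smallest p for Ss18l2, with medians of 8.95 CPM in WT-veh, 14.6 CPM in WT-PMX, 23.1 CPM in Arc-veh and, in Arc-PMX, 10.6 CPM. The interaction was -1.85 ± 0.40 on the log2 scale (edgeR adjusted p = 0.634). Sh3glb2 (-1.36 ± 0.33), Ntmt1 (-1.24 ± 0.33), Cc2d1b (-1.09 ± 0.30) and Gm16168 (1.82 ± 0.52) followed, each with an adjusted p of 1.0.

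**Figure D4:**
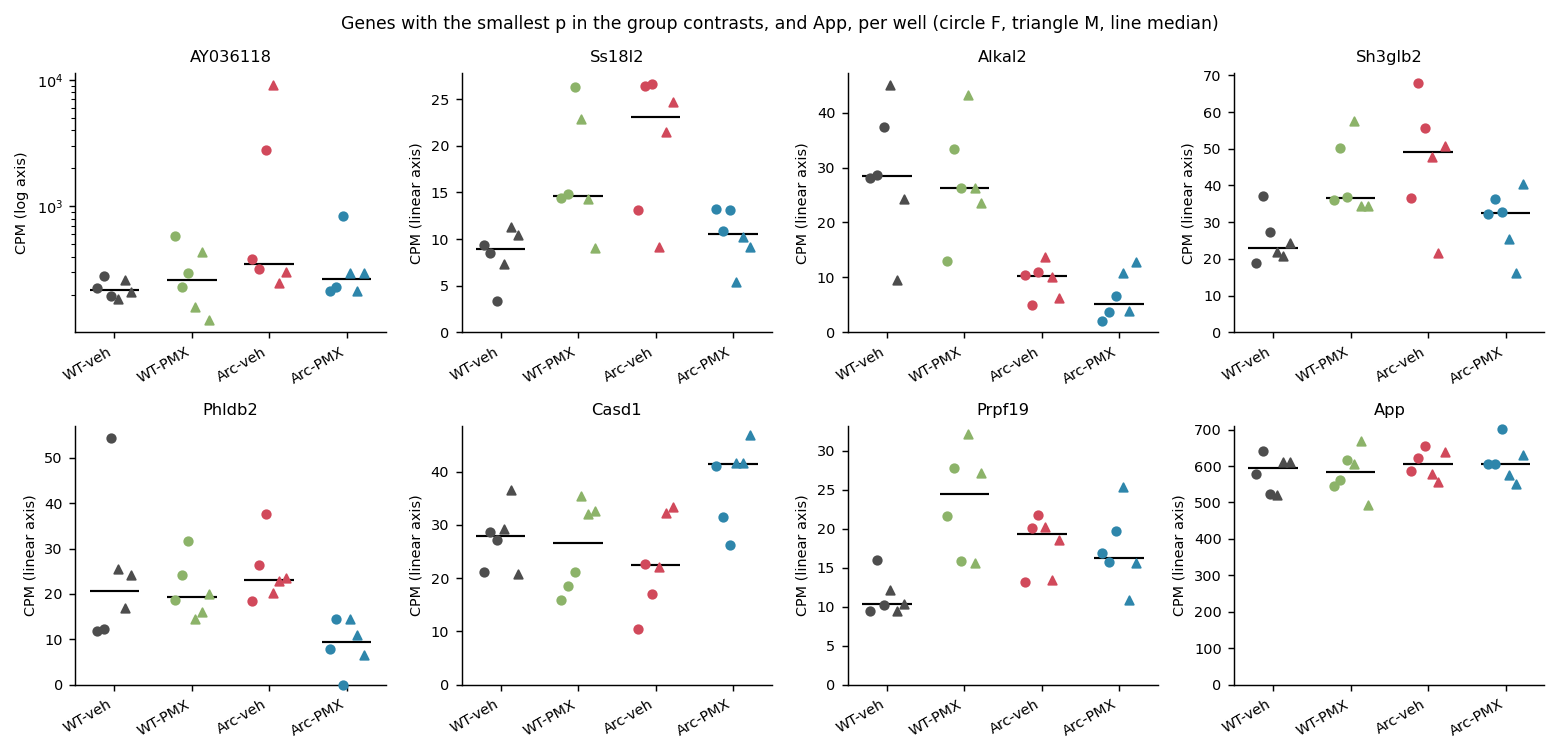
CPM in the selected nuclei of each well for 7 genes with the smallest p in the group contrasts and for App (circles female, triangles male, line the median, AY036118 on a log axis and the others on linear axes from 0). Alkal2 lies at or below 13.8 CPM in all 12 Arc wells, 1 Arc-veh well carries AY036118 at 9101 CPM, and App overlaps in all groups.

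App reads are counted on the mouse gene, so they check the transgene only in so far as human reads align there. In all nuclei App ranged from 453 to 546 CPM in WT-veh and 515 to 592 CPM in WT-PMX, against 584 to 891 CPM in Arc-veh and 569 to 742 CPM in Arc-PMX. WT-veh and Arc-veh wells did not overlap, while the PMX205 wells of both genotypes did. In the selected nuclei the medians were 593 CPM (WT-veh), 584 CPM (WT-PMX), 605 CPM (Arc-veh) and 606 CPM (Arc-PMX), and the log2 fold change for Arc-veh minus WT-veh was 0.06 ± 0.09 (edgeR adjusted p = 1.0).

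Gene lists for the roles of these cells were read by their counts and medians beside those of all genes tested. Of all 8333 genes, 4099 were above 0 for Arc-veh minus WT-veh (median log2 fold change -0.00). For Arc-PMX minus Arc-veh it was 4003 (median -0.01), and for WT-PMX minus WT-veh 4138 (median -0.00). No tested member of any of the 31 lists passed the edgeR test in any contrast. Of 11 tested basket or fast-spiking genes, 7 were above 0 for Arc-veh minus WT-veh (median 0.03) and 0 for Arc-PMX minus Arc-veh (median -0.24). For WT-PMX minus WT-veh it was 3 (median -0.06). Kcnc2, the Kv3.2 channel gene, had a median of 2145 CPM in WT-veh, of 1964 CPM in Arc-veh and of 1663 CPM in Arc-PMX, and log2 fold changes of 0.01 ± 0.25 and -0.20 ± 0.24. Erbb4, the neuregulin receptor gene of these cells, had 0.09 ± 0.18 and -0.30 ± 0.18. The basket or fast-spiking markers summed to 2946 CPM in cluster 1, 1633 in cluster 6, 2572 in cluster 8 and 760 in cluster 14. In the selected nuclei outside each of these clusters the sum was at least 10458 CPM. The median share of clusters 1, 6, 8 and 14 was 17.6% in Arc-veh and 40.2% in Arc-PMX, and its part in these differences was not tested.

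Of the 8 tested MGE transcription factors besides Lhx6 and Sox6, 3 were above 0 for Arc-veh minus WT-veh (median -0.04) and 4 for Arc-PMX minus Arc-veh (median -0.10). For WT-PMX minus WT-veh it was 2 (median -0.16). Maf, which keeps MGE cells on their path after they leave the eminence, ranged from 177 to 259 CPM in Arc-veh and from 105 to 220 CPM in Arc-PMX, which is -0.55 ± 0.19 on the log2 scale (edgeR adjusted p = 0.750). Mef2c had -0.29 ± 0.16 in the same contrast. Maf stood at 0 to 1.74 CPM in clusters 1, 6, 8 and 14 and at 82.2 to 366 CPM in the other clusters. The median share of clusters 1, 6, 8 and 14 was 17.6% in Arc-veh and 40.2% in Arc-PMX. The part of that share in these differences was not tested.

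Of 22 voltage-gated potassium channel genes, 14 were above 0 for Arc-veh minus WT-veh (median 0.02) and 8 for Arc-PMX minus Arc-veh (median -0.13). Of 17 sodium, HCN and calcium channel genes it was 11 (median 0.01) and 5 (median -0.12). Of 19 glutamate receptor genes it was 10 (median 0.01) and 8 (median -0.05), of 14 GABA receptor genes 5 (median -0.03) and 8 (median 0.00), and of 20 inhibitory synapse adhesion genes 12 (median 0.05) and 6 (median -0.05). Of 8 tested genes for GABA synthesis and transport, 7 were above 0 (median 0.04) and then 1 (median -0.10). Neuromodulator receptors had 4 of 9 tested genes above 0 (median -0.02) and then 1 (median -0.32), and neuregulin and neurotrophin receptors 5 of 7 (median 0.08) and then 2 (median -0.13). For WT-PMX minus WT-veh the counts above 0 of these lists were, in the order given, 10, 7, 7, 6, 7, 5, 1 and 1. Their medians were -0.01, -0.02, -0.02, -0.01, -0.06, 0.11, -0.08 and -0.12.

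Of the 7 tested perineuronal net and matrix genes, 6 were above 0 for Arc-veh minus WT-veh (median 0.35) and 2 for Arc-PMX minus Arc-veh (median -0.20). For WT-PMX minus WT-veh it was 5 (median 0.30). Tnr, which codes for tenascin-R, had 0.05 ± 0.11 and -0.20 ± 0.11. Acan ranged from 7.86 to 24.2 CPM in Arc-veh and from 0 to 13.3 CPM in Arc-PMX (medians 16.8 and 5.96). Its log2 fold change was -1.32 ± 0.36 (edgeR adjusted p = 0.750), the wells overlapped, and clusters 3 and 5, where it was highest, had lower median shares in Arc-PMX than in Arc-veh, whose part in this was not tested. Among 10 genes for the amyloid precursor and its processing the medians were 0.01 and -0.01. C5ar1, the target of PMX205, had 1 transcript in all selected nuclei together, and of the 13 complement genes only Csmd1, Csmd2 and Csmd3 were expressed enough to be tested (median 0.07 for both contrasts).

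The medians of several lists for other cell types lay further from 0. Of 4 tested oligodendrocyte genes, 0 were above 0 for Arc-veh minus WT-veh (median -1.47) and 4 for Arc-PMX minus Arc-veh (median 0.99). The 6 markers summed ranged from 44.6 to 423 CPM in WT-veh and from 26.9 to 162 CPM in Arc-veh, none of them at 0 over all selected nuclei, and their part in other differences was not tested. Of 5 tested genes of the striatal, septal or thalamic list, 0 were above 0 for Arc-veh minus WT-veh (median -0.39) and 5 for Arc-PMX minus Arc-veh (median 0.82). Its 11 markers, none at 0, summed to between 27.5 and 429 CPM (median 248) in Arc-veh and between 110 and 704 CPM (median 544) in Arc-PMX. The median share of clusters 1, 6, 8 and 14 was 17.6% and 40.2% in these groups, and its part in the differences of this contrast was not tested. The choroid plexus or ependymal list had 1 tested gene, Htr2c, with log2 fold changes of -0.77 ± 0.49 for Arc-veh minus WT-veh and 1.10 ± 0.48 for Arc-PMX minus Arc-veh (edgeR adjusted p = 1.0 and 0.755). Its 5 markers, none at 0, summed to between 15.4 and 150 CPM (median 82.9) in Arc-veh and between 70.2 and 296 CPM (median 170) in Arc-PMX. Htr2c was also a leading gene of cluster 8, whose median share was 3.45% in Arc-veh and 5.76% in Arc-PMX, and the part of either in the difference was not tested.

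For the other cell types the ranges of the summed markers overlapped between groups, while some medians differed. Astrocyte markers had the lowest median in WT-veh (22.3 CPM, range 14.1 to 56.4), then WT-PMX (31.9, range 16.3 to 68.6), Arc-veh (47.5, range 22.2 to 97.5) and Arc-PMX (68.2, range 18.2 to 111). Microglial markers summed to a median of 36.1 CPM in WT-veh (30.4 to 46.6), 27.6 in WT-PMX (19.9 to 59.3), 50.03 in Arc-veh (25.8 to 112) and 46.8 in Arc-PMX (30.03 to 83.4). Vascular markers reached at most 12.2 CPM in WT-veh, 15.8 in WT-PMX, 10.7 in Arc-veh and 59.7 in Arc-PMX, with medians of 6.33, 3.86, 7.34 and 8.38 CPM. Medians of glutamatergic markers lay between 442 and 455 CPM in the 4 groups, those of oligodendrocyte precursor markers between 47.7 and 72.1 CPM and those of CGE markers between 58.4 and 81.7 CPM. The part of these sums in the group differences was not tested. Each of these lists had 0 markers at 0 over all selected nuclei, except that in the CGE list 1 of 9 markers was at 0.

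The last comparison set the selected nuclei beside the 890 CGE-like nuclei of the same 24 wells. The rule separates these kinds by Nxph1, Lhx6, Sox6 and Adarb2, so the differences of other genes are a description of what came along. Of 6455 genes outside the rule, 338 (5.24%) lay at least 2-fold apart and past an adjusted threshold of 0.05 in a fit with the well as a block, 156 higher in the selected nuclei (2.42%) and 182 lower (2.82%). After every nucleus was thinned to 2000 transcripts this number was 101.

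Fast-spiking genes were among those higher in the selected nuclei, with 5 of 10 list genes past the threshold. Syt2 had a median of 61.8 CPM over the wells against 0 in CGE-like nuclei, and was higher in 23 of 24 wells. Satb1, a chromatin organizer that acts with Sox6 and Lhx6 in MGE cells, had 154 against 40.8 CPM and was higher in 23 of 24 wells. Ppargc1a had 142 against 57.6 CPM and was higher in 24 of 24. Kcnc2 had 1782 against 814 CPM and Cntnap4 808 against 369.05 CPM. Pvalb, whose counts were too low to pass the filter of this fit, was higher in 24 of 24 wells (median 19.6 against 0 CPM). Erbb4 differed little, at 6586 and 5760 CPM.

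Several glutamate receptor genes were also higher. The list had 5 of 19 genes past the threshold and none lower. Gria1 had a median of 6232 CPM in the selected nuclei and 2578 CPM in CGE-like nuclei, Gria3 943 and 315 CPM, and Grm5 3288 and 1596 CPM. Among channel genes, Cacna1a, the P/Q-type calcium channel gene, had 1398 and 624 CPM and its partner Cacna2d2 had 279 and 51.6 CPM. Kcnip4, which codes for a partner of potassium channels (1389 and 4078 CPM), and the potassium channel gene Kcnq5 (579 and 1728 CPM) were lower. Of 6 tested perineuronal net and matrix genes, 1 was higher and 1 lower past the threshold. Bcan, a proteoglycan of the net, had 57.7 and 8.98 CPM, and Ptprz1 had 87.1 and 297 CPM.

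The largest differences by the naming rule, among genes of at least 6 log2 CPM, were those of Tmem44 (median 120 against 8.63 CPM), the carboxypeptidase gene Cpa6 (97.3 against 6.40 CPM), Lypd6b, Il1rapl2, Iqcj, Nek7, Gm41414, Rnf144b, Slit2 and Utrn on the higher side. Cpa6 was also a leading gene of clusters 8 and 14, and was higher in 20 of 24 wells. On the lower side stood Syt6 (5.11 against 149 CPM), Cadps2 (45.9 against 757 CPM), Ntng1 (64.3 against 887 CPM), the cannabinoid receptor gene Cnr1 (28.0 against 394 CPM), Glis3, the CGE factor Prox1 (10.7 against 111 CPM), Pdzrn3, Thsd7b, Frem1 and Igf1. Vip was at a median of 0 against 17.2 CPM.

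**Figure D5:**
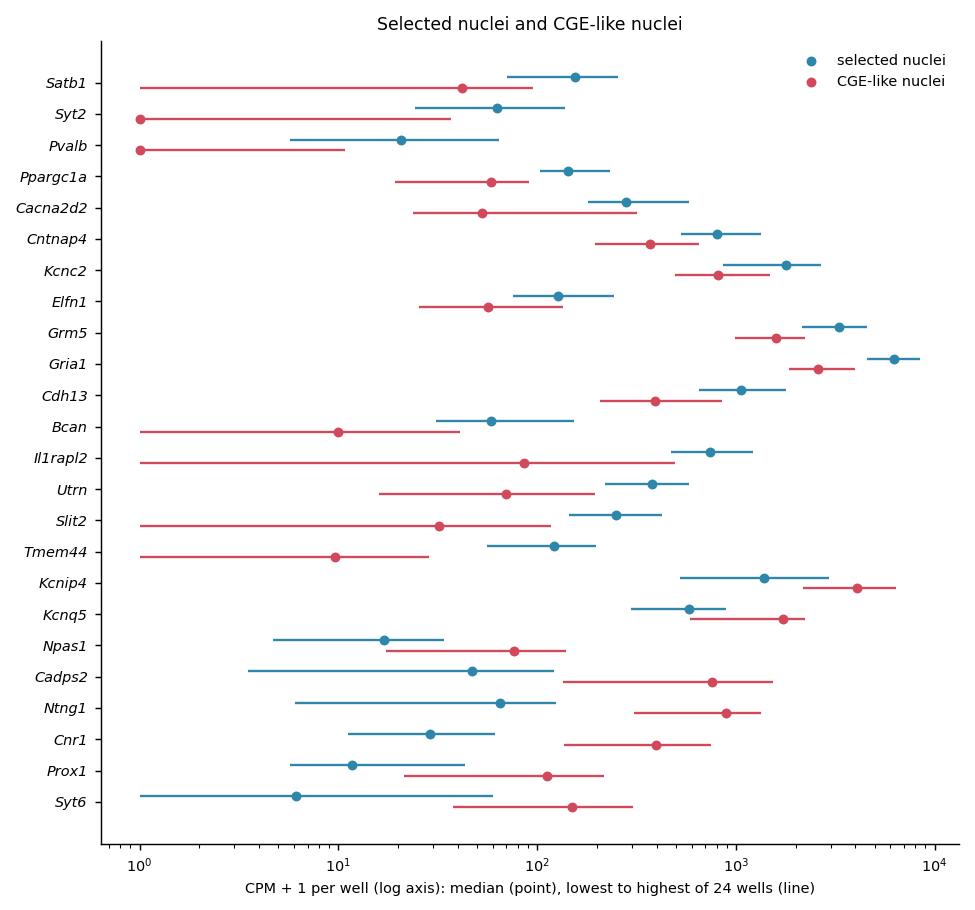
CPM plus 1 per well, on a log axis, of 24 genes outside the rule in the selected nuclei (blue) and the CGE-like nuclei (red), with the point at the median and the line from the lowest to the highest of 24 wells. Satb1, Syt2 and Ppargc1a lie to the right in the selected nuclei, while Prox1, Cnr1 and Syt6 lie to the right in the CGE-like nuclei.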

How the data were processed

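The authors made the deposited transcript (UMI) counts per barcode and gene with Parse's split-pipe (its version is not given in the sources used here), without normalization. The study names the mm10 assembly in its NCBI RefSeq release. The processing notes also name bcl2fastq. Genotype, treatment and sex of each first-round well came from the authors' sample sheet. Single-cell wells were not used here. The nuclei and lists were chosen with earlier results of these data known. Clusters came from scanpy 1.11.5 and leidenalg 0.10.2 (2000 variable genes without the rule's genes, 20 components, 15 neighbours, resolution 0.5), and the rule for naming them was set after they had been seen. Counts were summed per well. Groups were compared by edgeR 4.0.16 in R 4.3.3 (filterByExpr, TMM, glmQLFit, glmQLFTest, sex as covariate, 4 groups in 1 fit, Benjamini-Hochberg at 0.05), checked on simulated data, with DESeq2 1.42.0 as an alternative. Shares were compared by exact permutation over wells. CPM are counts per 1000000 selected transcripts of a well. Named genes were the markers, the 5 smallest p per contrast where fewer than 5 were called, the 10 largest differences a direction against CGE-like nuclei among those past the threshold with a mean of at least 6 log2 CPM, and per list the called genes and the 3 with the highest level. Genes outside this rule (cluster genes, the split by Pvalb, and Acan, C5ar1, Vip and Vwc2l) were named after their values were seen. Doublets were scored by Scrublet (expected rate 0.06) and kept, with a fit without them as an alternative. The comparison with Sst nuclei was not run, since no well held 10 of them (at most 9). All 55536 gene identifiers matched the GENCODE annotation of GRCm38. Some listed genes are not reported here.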

Additional observations from a re-analysis of the deposited data

Results flagged for a closer look

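In 10 of 100 sets of 6 wells tested by Dixon's rule, 1 well stood apart from the other 5. Chance flags about 1 in 20 such sets. Several involved WT-PMX F3, where Pvalb was at 63.2 CPM (the other wells 9.83 to 27.2 CPM), Lhx6 at 84.3 CPM (44.5 to 53.3 CPM) and Ntmt1 at 31.6 CPM (14.5 to 20.3 CPM). In the same group Cc2d1b was at 29.7 CPM in F2 (20.0 to 23.1 CPM elsewhere) and Gpr83 at 7.25 CPM in M3 (21.1 to 27.8 CPM). AY036118 was at 9101 CPM in Arc-veh M1 (248 to 2777 CPM) and at 845 CPM in Arc-PMX F3 (213 to 299 CPM). Gad1 was at 432 CPM in Arc-PMX F3 (288 to 331 CPM). In WT-veh, Phldb2 was at 54.4 CPM in F3 (11.7 to 25.6 CPM) and Gm16168 at 34.7 CPM in M3 (9.38 to 18.6 CPM). Many of these values come from shallow wells. WT-PMX F3 held 189764 selected transcripts, Arc-PMX F3 152698, WT-veh F3 294069 and WT-veh M3 288562, against a median of 815525.5 over all wells. Arc-veh M1, with 1087376, was above that median. The part of depth in the flags was not tested.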

How the results depend on the processing

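The selected nuclei of a well held 152698 to 2245223 transcripts, and the effect of this depth on the group contrasts was not tested. The number of genes called in the group contrasts was 0 with RLE size factors, DESeq2, no sex covariate, only the compared groups, doublets left out, the mitochondrial filter, the stricter rule, nuclei with oligodendrocyte precursor transcripts left out, only nuclei with Lhx6 or Sox6, wells of at least 20 nuclei, and without WT-veh F3 and M3 (this and the Lhx6 or Sox6 subset were chosen after seeing the data). With no filter on low counts it was 42 for Arc-veh minus WT-veh, 177 for Arc-PMX minus Arc-veh, 5 for WT-PMX minus WT-veh and 63 for the difference between the PMX205 effects, of 25490 genes tested, and 1086 against CGE-like nuclei (338 before). Of the 42, 177, 5 and 63 genes, 33, 157, 4 and 51 were also in the filtered fit, and the cause was not tested. AY036118, Alkal2, Phldb2, Slc12a8, Ss18l2, Sh3glb2 and Gm16168 passed the threshold in that fit. There AY036118 had an edgeR adjusted p of 6.13e-89 for Arc-veh minus WT-veh. Yet Arc-veh M1 stood at 9101 CPM and the other Arc-veh wells at 248 to 2777 CPM. The calls of that fit are given as counts and are not read as results. Thinning to 2000 transcripts gave 101 genes against CGE-like nuclei, by the construction with fewer counts, and nuclei with Lhx6 or Sox6 gave 444. Leaving out single wells or sublibraries gave 0 to 1 genes for Arc-veh minus WT-veh (Alkal2, without WT-veh M2) and 0 to 1 for Arc-PMX minus Arc-veh (Vwc2l, -0.97, adjusted p = 0.0179, without Arc-veh M1), and 0 for the other 2 contrasts. Against CGE-like nuclei, where only wells were left out, it gave 315 to 348. The shares, none past the threshold in any setting, turned direction in these settings. Leaving out single wells moved Arc-veh minus WT-veh from -0.458 to 0.421, Arc-PMX minus Arc-veh from -0.0223 to 1.001 and WT-PMX minus WT-veh from -0.438 to 0.376 percentage points. The stricter rule gave 0.0935 for Arc-veh minus WT-veh and 0.0333 for WT-PMX minus WT-veh, nuclei with Lhx6 or Sox6 gave 0.504 for Arc-veh minus WT-veh and -0.394 for Arc-PMX minus Arc-veh, and GABAergic nuclei as the denominator gave -5.47 for Arc-PMX minus Arc-veh, and the cause was not tested. Without WT-veh F3 and M3 the shares differed by -0.617, 0.484 and -0.662 (permutation test, adjusted p = 0.580 each). With the replicate number within sex as a block, 0 genes were called in every contrast (338, 435, 213 and 317 at an unadjusted p under 0.05). Wells with the same number did not deviate together: 9 of 36 pairs had a correlation above 0.1 (range -0.270 to 0.384), and 4 of 24 wells correlated best with their own number.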
